A study of Mus musculus and Macaca nemestrina with 20 samples.

Results

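The genes of the opioid peptides and their receptors, with the gene of cannabinoid receptor 1, were examined in bulk RNA sequencing of dorsal root ganglia (DRG), the clusters of sensory neuron cell bodies beside the spinal cord. The set was taken by gene symbol, without regard to measured values. It holds 4 receptor genes (Oprm1, Oprd1, Oprk1 and Oprl1), 4 precursor genes (Penk, Pdyn, Pnoc and Pomc) and Cnr1. These are 9 of the 29766 genes in the mouse tables, and the same 9 symbols in capitals are found among the 35194 genes in the monkey tables. All 9 passed the filter on low counts in both species.

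The mouse part of the study compared 7 DRG libraries labelled ADAM17 KO, called knockout here, with 7 control libraries labelled ADAM17 flox. ADAM17 is a membrane enzyme that cuts tumour necrosis factor and other surface proteins free of the cell. By the labels, knockout libraries 1 to 4 and flox libraries 1 to 3 form batch 1, and knockout libraries 5 to 7 with flox libraries 4 to 7 form batch 2. The monkey part compared 3 libraries of DRG from skin treated with SADBE (squaric acid dibutyl ester, a contact sensitiser) with 3 from vehicle-treated control skin of Macaca nemestrina, the pig-tailed monkey. Age, sex, the Cre driver, the deleted exons, the dose and duration of SADBE, and the number of animals behind a library are not given in the sources used here. Both mouse groups are named by an allele of the same gene, and the labels do not say whether the knockout mice carried the flox allele as well. The labels also do not say whether SADBE and vehicle ganglia came from the same monkeys.

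The opioid receptors are receptors of the inhibitory G protein class: when a peptide binds, they lower calcium entry and open potassium channels, which quiets the neuron and its terminals. Their peptide ligands are cut out of larger precursor proteins by proteases inside secretory vesicles. In sensory ganglia the receptors sit on subsets of neurons that carry pain, touch and itch, and the cannabinoid receptor CB1 acts through the same class of G protein.

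The precursors differ in how many opioid peptides they carry, which is visible in their coding sequences. A search of the translated coding sequence of each mouse precursor (longest complete reading frame, GENCODE M21 transcripts, build GRCm38) found 6 Met-enkephalin cores and 1 Leu-enkephalin core in the 268 codons of Penk. It found 3 Leu-enkephalin cores in the 248 codons of Pdyn, 1 Met-enkephalin core in the 235 codons of Pomc and 1 nociceptin core in the 212 codons of Pnoc. All 12 cores follow directly after a pair of codons for basic residues, the signal at which prohormone convertases cut. Of these cores, 5 of the 7 in Penk and 3 of 3 in Pdyn are also followed by such a pair, and those in Pomc and Pnoc, which begin the longer peptides beta-endorphin and nociceptin, are not. A stretch from each precursor is shown, with both core types of Penk, because the cores are what the precursors share: the Leu-enkephalin core of Penk and the core of dynorphin A have the same bases, and the nociceptin core differs from both enkephalin cores. Capitals mark the core, and the lower-case letters are the codons on each side.
Penk, first Met-enkephalin core: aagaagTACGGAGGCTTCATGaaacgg
Penk, Leu-enkephalin core: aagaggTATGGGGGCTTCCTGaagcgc
Pdyn, the core that begins dynorphin A: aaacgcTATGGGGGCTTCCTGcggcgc
Pomc, the core that begins beta-endorphin: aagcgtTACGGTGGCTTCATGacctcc
Pnoc, the core that begins nociceptin: aaaaggTTTGGGGGCTTCaccggg
They lie at chr4:4134328-4134354 and chr4:4133935-4133961 (both minus strand, exon 2 of Penk), chr2:129688124-129688150 (minus strand, exon 4 of Pdyn), chr12:3960367-3960393 (plus strand, exon 3 of Pomc) and chr14:65404875-65404898 (minus strand, exon 3 of Pnoc) in GRCm38.

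In the same annotation Oprm1 lies at chr10:6758506-7038198 on the plus strand, and 2 protein-coding genes on the opposite strand, Ipcef1 and Gm10945, overlap it. Oprd1 lies at chr4:132110726-132144486 on the minus strand, Oprk1 at chr1:5588466-5606131 on the plus strand, Oprl1 at chr2:181715016-181720985 on the plus strand and Cnr1 at chr4:33924593-33948831 on the plus strand. Penk, at chr4:4133531-4138819, is overlapped on the opposite strand by 1 noncoding gene. No annotated gene overlaps the other 7 members. The sources used here do not say whether the libraries kept strand, and whether reads of these overlapping genes entered the Oprm1 or Penk counts was not tested.

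Total estimated counts were, in a unit of 1000 times 1000, 12.1 to 14.7 for knockout against 46.9 to 52.1 for flox in batch 1, and 27.9 to 30.8 for knockout against 30.9 to 36.0 for flox in batch 2. Monkey totals were 9.02 to 22.4 for SADBE and 13.7 to 27.1 for vehicle. All 10 pan-neuronal markers were detected in every library, with summed levels of 2790 to 4440 TPM in knockout, 1600 to 4100 TPM in flox, 3030 to 4350 TPM in SADBE and 1220 to 4660 TPM in vehicle libraries. Adam17 transcripts were 4.70 to 9.18 TPM in the libraries labelled knockout and 5.75 to 9.51 TPM in flox, with a log2 fold change of 0.03 ± 0.18 (SE) and an adjusted p of 0.93, so the level of the targeted gene did not separate the labels. Without the position of the deletion this neither bears out nor contradicts them, and every mouse direction below rests on the label. Knockout libraries 6 and 7 held 19.2 and 21.9 TPM of the Y-linked gene Ddx3y, and the other 12 mouse libraries at most 0.129 TPM. Of the 7 neutrophil and marrow markers, 7 were higher in knockout, with summed levels of 1340 to 16100 TPM against 119 to 1720 TPM in flox. Fibroblast markers were lower in 5 of 6 and myelinating Schwann cell markers in 5 of 6. Spinal cord markers, none of which was called among the 8 of 11 tested, summed to 51.5 to 326 TPM in knockout and 43.2 to 330 TPM in flox. In bulk tissue, fewer cells of a type and less RNA per cell cannot be told apart.

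TPM, a transcript's share of its library, is scaled for transcript length and so allows levels of different genes to be compared. In knockout ganglia Penk had the highest mean level, 23.1 ± 24.6 TPM (SD, n = 7), followed by Cnr1 at 20.1 ± 22.8, Oprl1 at 7.68 ± 3.01, Oprm1 at 1.78 ± 0.98, Pomc at 1.66 ± 0.66, Pnoc at 1.08 ± 0.72, Pdyn at 0.721 ± 0.725, Oprk1 at 0.616 ± 0.285 and Oprd1 at 0.493 ± 0.303 TPM. In flox ganglia the order was Penk at 19.7 ± 7.8 TPM (SD, n = 7), Cnr1 at 13.5 ± 12.1, Oprl1 at 5.67 ± 2.36, Pomc at 2.04 ± 0.90, Oprm1 at 1.12 ± 0.47, Pdyn at 0.917 ± 0.712, Oprk1 at 0.653 ± 0.259, Pnoc at 0.577 ± 0.233 and Oprd1 at 0.300 ± 0.225 TPM. In mean level, a precursor, the cannabinoid receptor and the nociceptin receptor stood above the classical mu, delta and kappa receptors in both genotypes. Neighbours in each order were compared by a two-sided exact sign-flip permutation test on log2(TPM + 0.1). With 7 libraries the smallest p it allows is 0.0156, so a lone pair among 8 cannot have an adjusted p below 0.125, and no pair passed the adjustment. In knockout, Oprl1 exceeded Oprm1 in 7 of 7 libraries by 2.10 ± 0.62 (mean log2 difference, SD), with that smallest exact p. In flox, Oprl1 exceeded Pomc in 6 of 7 libraries by 1.30 ± 0.96 (exact p = 0.0313, adjusted p = 0.208). The other steps held in 3 to 6 of 7 libraries, with unadjusted exact p-values of 0.0469 to 0.953. The top of the order depended on the batch. In batch 1 Penk led and Cnr1 stood below Oprl1, while in batch 2 Cnr1 led, with mean levels of 42.8 TPM in knockout and 21.6 TPM in flox. In units of 1000, deposited TPM columns have sums of 601 to 834 for batch 1 libraries but 954 to 979 for those of batch 2, so a TPM value does not stand for quite the same share in each batch.

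**Figure D1:**
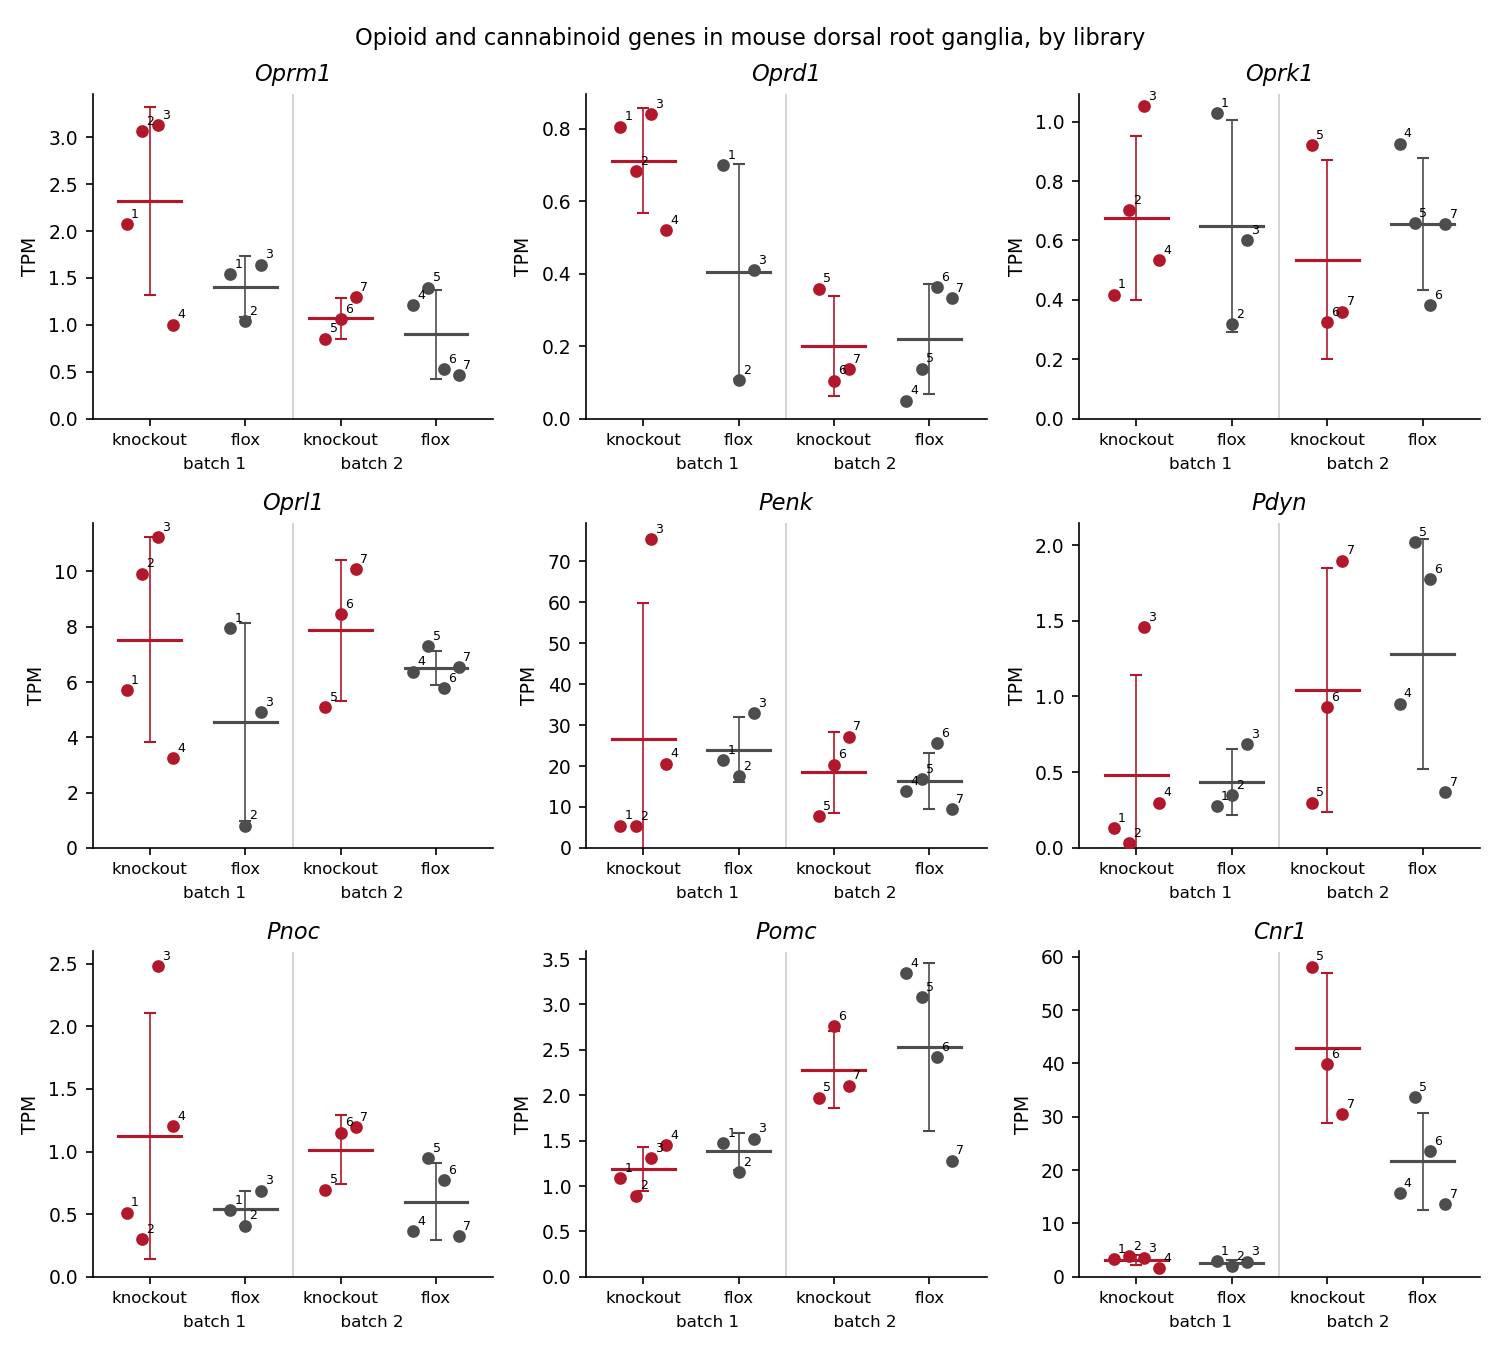
TPM of the 9 genes in each mouse library, with knockout in red and flox in grey, batch 1 left and batch 2 right in each panel; points carry the library number, horizontal bars are means and vertical bars SD (n = 4 and 3 in batch 1, 3 and 4 in batch 2). Knockout and flox points overlap in every panel within each batch, Cnr1 differs most between batches, and knockout library 3 stands at the top for Penk at 75.4 TPM and for Pnoc at 2.48 TPM.

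None of the 9 genes was called between knockout and flox when both batches were fitted together with batch as a term (edgeR's quasi-likelihood test, Benjamini-Hochberg adjusted p under 0.05 over all genes tested). Of all 15654 genes tested, 15.5% were called. At an unadjusted p under 0.05 there was 1 member, Cnr1. DESeq2 and limma voom each called 1, again Cnr1. The 15.5% belongs to edgeR, and the share of all genes called by DESeq2 or limma voom is not given here. The median log2 fold change was 0.27 over the members and -0.01 over all genes, with 6 members above 0 and 3 below. Within batches the TPM values of the genotypes overlapped for all 9 members, where 11.0% of all genes did not overlap in batch 1 and 27.1% in batch 2.

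**Figure D2:**
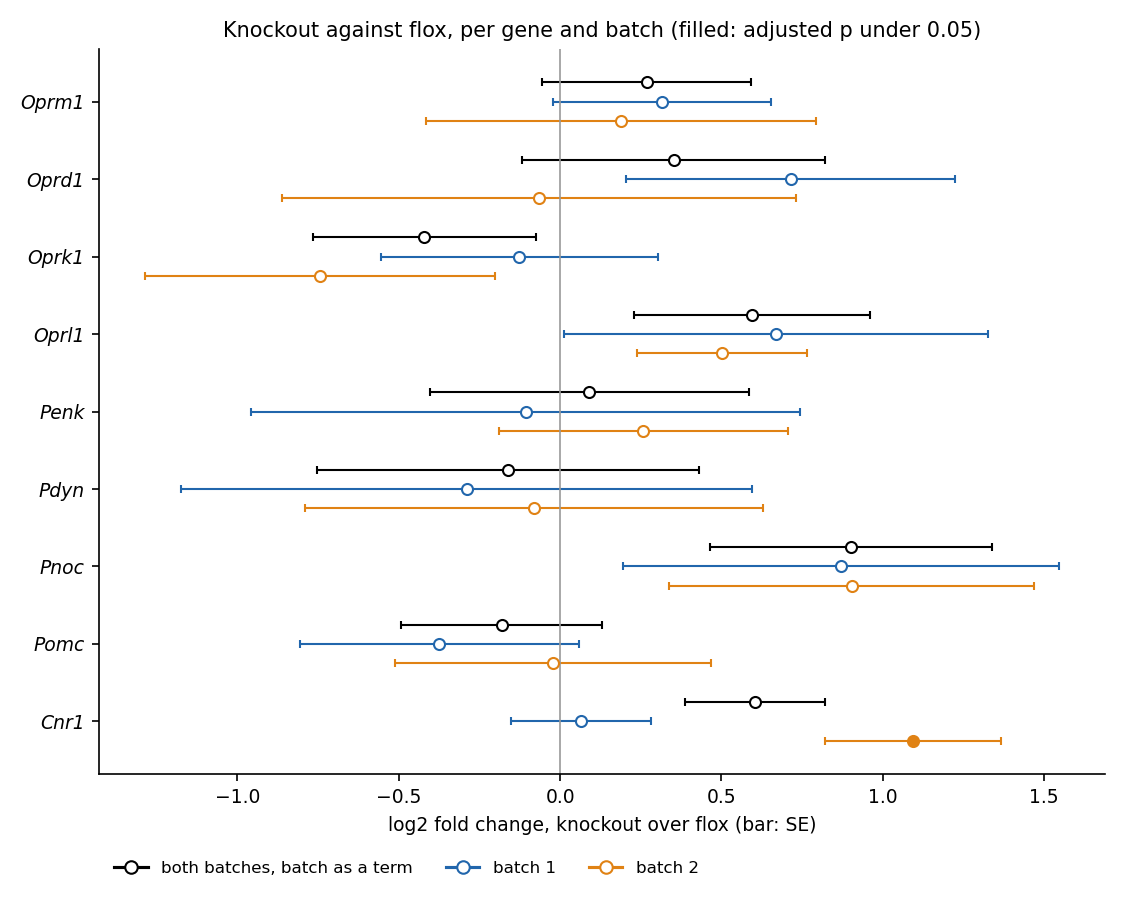
Log2 fold change of knockout over flox with its SE for each gene, from the fit to both batches (black), batch 1 (blue) and batch 2 (orange); filled points have an adjusted p under 0.05. The only filled point is Cnr1 in batch 2, at 1.09.

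Oprm1 encodes the mu receptor, the main target of morphine and of the endorphins and enkephalins. It measured 2.07, 3.07, 3.13 and 1.00 TPM in knockout libraries 1 to 4, against 1.54, 1.04 and 1.64 TPM in flox libraries 1 to 3. In batch 2 it measured 0.856, 1.06 and 1.30 TPM in knockout libraries 5 to 7 and 1.22, 1.40, 0.528 and 0.463 TPM in flox libraries 4 to 7. The 3 highest values were knockout libraries of batch 1, but the fourth knockout library of that batch lay below all its flox libraries, so the groups overlapped. The log2 fold change was 0.27 ± 0.32 (adjusted p = 0.612). Ipcef1, on the opposite strand, had a log2 fold change of 1.25 ± 0.49 (adjusted p = 0.093), and its part in the Oprm1 value was not tested.

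Oprd1 encodes the delta receptor, which prefers enkephalins, and it had the lowest mean level of the 9 genes in both genotypes. Batch 1 gave 0.805, 0.683, 0.840 and 0.520 TPM in knockout ganglia, against 0.700, 0.106 and 0.411 TPM in flox. Batch 2 gave 0.359, 0.106 and 0.137 TPM in knockout ganglia, against 0.0501, 0.138, 0.363 and 0.333 TPM in flox. In batch 1 flox library 1 lay above knockout libraries 2 and 4, and in batch 2 the genotypes overlapped over most of their ranges. Its log2 fold change was 0.71 ± 0.51 in batch 1 (adjusted p = 0.525), -0.07 ± 0.80 in batch 2 (adjusted p = 0.97) and 0.35 ± 0.47 in both batches (adjusted p = 0.651). Its estimated counts were 10 to 43 for knockout and 5 to 141 for flox, which limits the precision of these values.

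Oprk1 encodes the kappa receptor, the main receptor of dynorphins. It measured 0.418, 0.702, 1.05 and 0.535 TPM in knockout libraries of batch 1, against 1.03, 0.319 and 0.601 TPM in flox. The batch 2 values were 0.921, 0.325 and 0.360 TPM in knockout libraries, against 0.926, 0.659, 0.383 and 0.656 TPM in flox. The genotypes overlapped in both batches. Its log2 fold change was -0.42 ± 0.35 (adjusted p = 0.437), the lowest of the 9.

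Oprl1 encodes the nociceptin receptor and was the best-expressed opioid receptor gene of the mouse ganglia. It measured 5.71, 9.93, 11.3 and 3.25 TPM in knockout libraries of batch 1, against 7.95, 0.801 and 4.92 TPM in flox. The batch 2 values were 5.09, 8.45 and 10.1 TPM in knockout and 6.37, 7.29, 5.79 and 6.54 TPM in flox libraries. The flox libraries of batch 2 were close together, with knockout libraries on both sides of them. The log2 fold change was 0.59 ± 0.37 in both batches (adjusted p = 0.288), 0.67 ± 0.66 in batch 1 and 0.50 ± 0.26 in batch 2. Flox library 2, the lowest of all 14, also had the lowest summed pan-neuronal markers, 1600 TPM. Without it the log2 fold change of Oprl1 was 0.37 ± 0.26 (adjusted p = 0.379). Without knockout library 5, Oprl1 was called in batch 2 (0.78 ± 0.20, adjusted p = 0.0348).

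Penk encodes proenkephalin, the source of the Met- and Leu-enkephalin copies shown above. It measured 5.43, 5.27, 75.4 and 20.6 TPM in knockout libraries 1 to 4, against 21.4, 17.6 and 32.9 TPM in flox libraries 1 to 3. In batch 2 it measured 7.74, 20.3 and 27.2 TPM in knockout libraries 5 to 7 and 13.8, 16.9, 25.6 and 9.41 TPM in flox libraries 4 to 7. The knockout group held both the highest and the 3 lowest values of the 14 libraries. The log2 fold change was 0.09 ± 0.49 in both batches (adjusted p = 0.921), and -0.41 ± 0.43 without knockout library 3 (adjusted p = 0.571).

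Pdyn encodes prodynorphin, the source of the kappa receptor ligands. It measured 0.129, 0.0331, 1.46 and 0.299 TPM in knockout libraries of batch 1, against 0.275, 0.346 and 0.686 TPM in flox. The batch 2 values were 0.299, 0.932 and 1.90 TPM in knockout and 0.953, 2.02, 1.78 and 0.367 TPM in flox libraries. The genotypes overlapped in both batches, and knockout libraries 1 and 2 were the lowest of all 14, from 4 and 1 counts. Its log2 fold change was -0.16 ± 0.59 (adjusted p = 0.879), and -0.65 ± 0.58 without knockout library 3 (adjusted p = 0.49).

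Pnoc encodes prepronociceptin, the precursor of the ligand of the Oprl1 receptor. It measured 0.512, 0.299, 2.48 and 1.20 TPM in knockout libraries of batch 1, against 0.535, 0.408 and 0.689 TPM in flox. For batch 2 they were 0.697, 1.15 and 1.20 TPM in knockout and 0.363, 0.947, 0.770 and 0.325 TPM in flox libraries. Knockout library 3 was the highest and knockout library 2 the lowest of the 14, so the groups overlapped. It had the highest log2 fold change of the 9 genes, 0.90 ± 0.44 (adjusted p = 0.172), and it did not pass the test. The value was 0.87 ± 0.68 in batch 1 and 0.90 ± 0.56 in batch 2, and 0.62 ± 0.43 without knockout library 3 (adjusted p = 0.36).

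Pomc encodes pro-opiomelanocortin, from which beta-endorphin and melanocortins are cut, and which is made mainly in the pituitary and hypothalamus. Batch 1 gave 0.896 to 1.45 TPM in knockout ganglia, against 1.15 to 1.52 TPM in flox, and batch 2 gave 1.98 to 2.76 TPM in knockout ganglia, against 1.28 to 3.35 TPM in flox. Its log2 fold change was -0.18 ± 0.31 (adjusted p = 0.733). Its counts were 10 to 58 for knockout and 28 to 74 for flox, and the genotypes overlapped in both batches.

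Penk, Pdyn and Pnoc varied together from library to library. After the mean of each batch and genotype was subtracted, Pearson's r of log2 CPM over the 14 libraries was 0.931 between Penk and Pdyn, 0.923 between Penk and Pnoc and 0.935 between Pdyn and Pnoc. Spearman's rho was 0.934, 0.912 and 0.934, and r without the 2 libraries farthest from the median was 0.880, 0.865 and 0.871. The gene pairs of Pomc with these 3 gave r of 0.503 to 0.616. Penk and Cnr1 gave -0.148. These coefficients describe the same 14 libraries and share their depth and their dissection. Among the 13480 genes compared, C1ql3 (r = 0.943) and Sst (r = 0.935), which encodes somatostatin, were the most like Penk. Pdyn and Pnoc themselves were below the mean of 1 TPM over the 14 libraries that a compared gene had to reach. Among the genes that reached it, Penk (r = 0.931) and Sst (r = 0.926) were the most like Pdyn, and Penk (r = 0.923) and Eif3j2 (r = 0.915) were the most like Pnoc.

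Knockout library 3 was the highest of the 14 libraries in Penk and Pnoc and the highest of batch 1 in Pdyn. It was also high in spinal cord markers, with a summed level of 326 TPM and 15.5 TPM of Gad1, which encodes a GABA-synthesising enzyme, where Gad1 was 0.508 to 9.76 TPM in the other libraries. Slc6a5, a glycine transporter of spinal neurons, was 3.52 TPM in that library and 0.0679 to 2.33 TPM in the others. Knockout libraries 1 and 2, which had 5.43 and 5.27 TPM of Penk, had summed spinal cord markers of 79.4 and 103 TPM, the lowest of batch 1. Flox library 1, with the highest sum of 330 TPM, had 21.4 TPM of Penk. Batch 2 knockout libraries 5 to 7 had sums of 85.7, 51.5 and 71.3 TPM. Their Penk levels were 7.74, 20.3 and 27.2 TPM. Batch 2 flox libraries 4 to 7 had sums of 52.6, 80.0, 124 and 43.2 TPM. Penk in them was 13.8, 16.9, 25.6 and 9.41 TPM. Of the 11 spinal cord markers, 0 to 2 were at 0 in each mouse library. With the mean level of the 8 tested spinal cord markers as a covariate, the log2 fold change was -0.30 ± 0.31 for Penk (adjusted p = 0.551), -0.53 ± 0.50 for Pdyn (adjusted p = 0.5) and 0.71 ± 0.34 for Pnoc (adjusted p = 0.173). The part of spinal cord tissue in these precursor values was not tested beyond this.

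**Figure D3:**
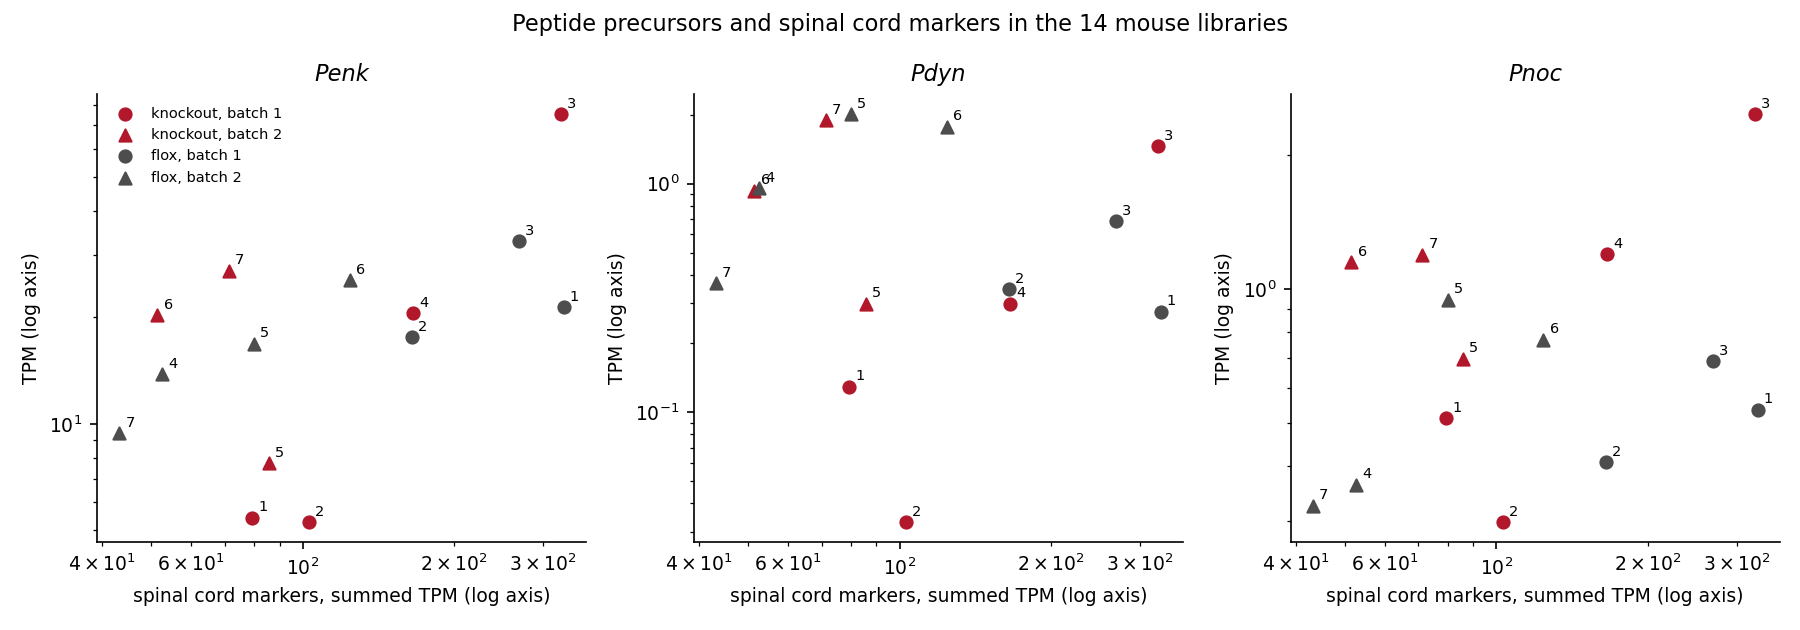
TPM of Penk, Pdyn and Pnoc (vertical, log axis) against the summed TPM of 11 spinal cord markers (horizontal, log axis) in the 14 mouse libraries, with knockout in red and flox in grey, circles for batch 1 and triangles for batch 2, and the library number at each point. Knockout library 3, at 326 TPM of spinal cord markers, is the highest point for Penk and Pnoc, and flox library 1, at 330 TPM, is not high for Pnoc.

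For the receptors, the genes most alike over the same libraries were Mmachc (r = 0.913) and Esco1 (r = 0.899) for Oprm1, Rcor2 (r = 0.926) for Oprd1, Ric8b (r = 0.919) and Rfxap (r = 0.907) for Oprk1, and Rell2 (r = 0.935) and Eno2 (r = 0.931), the neuronal enolase, for Oprl1. Bsg (r = 0.936) and Nudt1 (r = 0.878) were the most like Pomc, and Znf41-ps (r = 0.952) and Pomk (r = 0.929) the most like Cnr1. For these and for the precursors above, each named gene was picked as the highest of 13480 over only 14 libraries. How high r would run for unrelated genes picked in this way was not tested. Among the receptors themselves r ranged from -0.408 between Oprm1 and Oprd1 to 0.511 between Oprk1 and Oprl1.

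Cnr1 encodes the cannabinoid receptor CB1. It measured 3.35, 3.84, 3.49 and 1.70 TPM in knockout libraries 1 to 4, against 2.92, 1.94 and 2.83 TPM in flox libraries 1 to 3. In batch 2 it measured 58.1, 39.9 and 30.4 TPM in knockout libraries 5 to 7, against 15.7, 33.7, 23.5 and 13.7 TPM in flox libraries 4 to 7. In batch 1 the genotypes overlapped. In batch 2 the knockout libraries were the highest 2 and the fourth highest of the 7, with flox library 5 between them. Fitted over both batches, Cnr1 had a log2 fold change of 0.60 ± 0.22 (unadjusted p = 0.0133, adjusted p = 0.0705, edgeR) and was not called. In batch 1 it was 0.06 ± 0.22 (adjusted p = 0.916), where 0 of 9 members were called by edgeR and by DESeq2, none had an unadjusted p under 0.05 in edgeR, and 1.80% of all genes were called. In batch 2 Cnr1 was higher in knockout by 1.09 ± 0.27 on the log2 scale, or 2.13-fold (adjusted p = 0.0273). It was the 1 member of 9 called there, where 13.2% of all genes were called. In that batch the Y-linked Ddx3y was 19.2 and 21.9 TPM in knockout libraries 6 and 7. It was 0.0704 TPM in knockout library 5 and at most 0.117 TPM in flox. The part of this difference in the Cnr1 value was not tested.

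The test of the difference between the batches gave 0.99 ± 0.37 for Cnr1 (unadjusted p = 0.0156, adjusted p = 0.214), and 0 of 9 members were called by edgeR and DESeq2, with 1 under an unadjusted p of 0.05 in edgeR. Of all genes, 1.03% were called in that test. The batch 2 call was lost without knockout library 5 (0.91 ± 0.28, adjusted p = 0.0673), knockout library 6 (1.10 ± 0.32, adjusted p = 0.0671), flox library 4 (1.00 ± 0.30, adjusted p = 0.0706) or flox library 7 (0.92 ± 0.25, adjusted p = 0.0602). The pooled value was called without knockout library 4 (0.71 ± 0.20, adjusted p = 0.0231). Satellite glia markers also had higher sums in knockout in batch 2. The 5 markers, none at 0, summed to 1820 to 3040 TPM in knockout and 543 to 1070 TPM in flox. Of these 5 markers, 1 was called higher. In batch 1 they summed to 375 to 502 TPM in knockout and 309 to 572 TPM in flox. In knockout libraries 5 to 7, where Cnr1 was 58.1, 39.9 and 30.4 TPM, the satellite glia sums were 1820, 2560 and 3040 TPM. Pan-neuronal sums in the same libraries were 4440, 3350 and 3140 TPM, and non-peptidergic nociceptor sums 359, 180 and 169 TPM. In batch 2, 7 of 7 neutrophil and marrow markers (1340 to 2390 TPM in knockout and 119 to 252 TPM in flox), 5 of 7 NP3 pruriceptor markers (152 to 159 TPM in knockout and 46.9 to 56.7 TPM in flox), 3 of 6 peptidergic nociceptor markers (2720 to 3230 TPM in knockout and 1890 to 2480 TPM in flox) and 3 of 10 pan-neuronal markers (3140 to 4440 TPM in knockout and 3090 to 4100 TPM in flox) were also called higher. Called lower in batch 2 were 2 of 7 low-threshold mechanoreceptor and proprioceptor markers (178 to 245 TPM in knockout and 355 to 476 TPM in flox). So were 5 of 6 myelinating Schwann cell, 3 of 6 fibroblast, 1 of 5 non-peptidergic nociceptor and 1 of 6 skeletal muscle markers. The part of any of these in the Cnr1 value was not tested.

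Cnr1 separated the batches more than the genotypes. It was 3.27 ± 0.23 higher on the log2 scale in batch 2 than in batch 1 (9.61-fold, adjusted p = 7.57e-09), with a lowest level of 13.7 TPM in batch 2 and a highest of 3.84 TPM in batch 1. Pomc was also higher in batch 2, by 0.76 ± 0.31 (adjusted p = 0.0465). Oprd1, Oprm1 and Oprk1 were lower in batch 2, with log2 values of -1.48 ± 0.47 (adjusted p = 0.0129), -1.17 ± 0.33 (adjusted p = 0.00565) and -0.84 ± 0.35 (adjusted p = 0.0475). Thus 5 of 9 members were called between the batches, where 60.5% of all genes were called. Pdyn gave 1.35 ± 0.60 (adjusted p = 0.0627), Oprl1 0.30 ± 0.37, Penk -0.66 ± 0.50 and Pnoc -0.14 ± 0.43. The labels do not say what else differed between the batches.

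Because most of these genes are made by neurons, each was also set against the mean log2 CPM of the 10 pan-neuronal markers, 3 of which were called higher in knockout: Isl1 (1.09 ± 0.11, adjusted p = 1.07e-05), Elavl4 (0.47 ± 0.12, adjusted p = 0.0132) and Prph (0.45 ± 0.13, adjusted p = 0.025). The mean of the markers was 0.34 higher in knockout on the log2 scale, averaged over the batches. Relative to it, Cnr1 differed by 0.26 between knockout and flox (exact permutation p = 0.371, adjusted p = 0.594), Oprl1 by 0.38 (adjusted p = 0.594), Pnoc by 0.35 (adjusted p = 0.627) and Oprm1 by -0.00 (adjusted p = 0.994). Oprk1 had the lowest p, with a difference of -0.70 (exact p = 0.0245, adjusted p = 0.22). The means relative to the markers were -6.68 in knockout and -6.15 in flox of batch 1, and -7.63 in knockout and -6.76 in flox of batch 2. With the median of the markers in place of their mean, the differences were 0.11 for Cnr1, 0.23 for Oprl1, 0.19 for Pnoc, -0.16 for Oprm1 and -0.85 for Oprk1. In both forms none of the 9 ratios passed the adjustment over the members (two-sided exact permutation of genotype within batch, 1225 splits).

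The enzymes that make and remove the peptides and the proteins that carry the receptor signal were taken as 5 lists of 52 genes, of which 49 were tested in the mouse fit. Of these, 6 were called higher and 4 lower in knockout, 20.4%, beside the 15.5% of all genes. Among 7 prohormone processing enzymes, 3 were higher. The prohormone convertases Pcsk1 and Pcsk2, which cut at the basic pairs shown above, averaged 18.1 ± 6.9 and 42.4 ± 13.6 TPM in knockout (SD, n = 7), against 11.1 ± 4.6 and 25.4 ± 9.2 TPM in flox. On the log2 scale they were higher by 0.84 ± 0.19 (adjusted p = 0.0078) and 0.82 ± 0.14 (adjusted p = 0.00118), with 0.91 ± 0.29 and 0.69 ± 0.18 in batch 1 (not called) and 0.76 ± 0.21 and 0.93 ± 0.19 in batch 2 (called). Ctsl, the lysosomal and secretory protease cathepsin L, was higher by 0.41 ± 0.09 (adjusted p = 0.00757). Its values were 0.45 ± 0.14 in batch 1 and 0.35 ± 0.12 in batch 2, neither called alone. The median of the list was 0.16. Some neuronal markers were also higher in knockout, with no marker at 0. Of the NP3 pruriceptor markers (itch neurons), 6 of 7 were called higher. Their sums were 152 to 394 TPM in knockout and 46.9 to 181 TPM in flox. Peptidergic nociceptor markers were called higher in 3 of 6 (2720 to 5690 TPM in knockout and 1890 to 3630 TPM in flox). Pan-neuronal markers were called higher in 3 of 10. Of 5 non-peptidergic nociceptor markers, 0 were higher and 1 was lower. Of 7 low-threshold mechanoreceptor and proprioceptor markers (touch and position neurons), 0 were higher and 1 was lower. The part of these markers in the convertase values was not tested. The other 4, Cpe, Pam, Scg5 and Pcsk1n, were not called.

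Among 6 peptide degrading enzymes, 1 was called. Anpep, an aminopeptidase of fibroblasts and myeloid cells that trims enkephalins, averaged 0.795 ± 0.420 TPM in knockout and 2.17 ± 0.75 TPM in flox, and the genotypes did not overlap in either batch. It was lower, with a log2 fold change of -1.23 ± 0.30 (adjusted p = 0.012), with -1.78 ± 0.41 in batch 1 and -0.75 ± 0.37 in batch 2, neither called alone. Fibroblast markers moved with it, called lower in 5 of 6, with 0 called within batch 1 and 3 within batch 2. Their sums were 803 to 1850 TPM in knockout and 1610 to 3540 TPM in flox, none of the 6 at 0. Of the myeloid lists, 7 of 7 neutrophil and marrow markers were called higher in knockout. These summed to 1340 to 16100 TPM in knockout and 119 to 1720 TPM in flox. Of 6 macrophage markers 0 were called. The part of any of these markers in the Anpep value was not tested. The list's median was 0.04.

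Among 19 tested genes of receptor signalling, 3 were higher and 2 lower. Rgs19 and Rgs20, which speed the switching off of inhibitory G proteins, were higher by 0.67 ± 0.12 (adjusted p = 0.00174) and 0.97 ± 0.25 (adjusted p = 0.0163). Rgs19 measured 34.2 to 41.8 TPM in knockout and 18.6 to 27.1 TPM in flox libraries of batch 1, and 34.1 to 48.1 TPM in knockout and 19.0 to 32.4 TPM in flox libraries of batch 2, without overlap in either. Gnaz, the alpha subunit of an inhibitory G protein of neurons and platelets, was higher by 0.47 ± 0.12 (adjusted p = 0.0164). Rgs20 was 1.10 ± 0.37 in batch 1 and 0.82 ± 0.38 in batch 2, neither called alone. Gnaz was 0.32 ± 0.13 in batch 1 and 0.60 ± 0.19 in batch 2, neither called alone. Rgs19 was called in batch 2 and not in batch 1. Beside these stand the same 6 of 7 NP3 pruriceptor, 3 of 6 peptidergic nociceptor and 3 of 10 pan-neuronal markers, and 7 of 7 neutrophil and marrow markers, called higher in knockout. Of 5 non-peptidergic nociceptor markers 0 were higher and 1 lower. Of 7 low-threshold mechanoreceptor and proprioceptor markers 0 were higher and 1 lower. The part of these markers in the Rgs19, Rgs20 and Gnaz values was not tested. Grk2, a kinase that desensitises activated receptors, was lower, with a log2 fold change of -0.71 ± 0.21 (adjusted p = 0.0334). Its within-batch values were -0.15 ± 0.17 in batch 1 and -1.31 ± 0.22 in batch 2, and the test of the difference, batch 2 minus batch 1, gave -1.20 ± 0.29 (adjusted p = 0.0582). Grk3, its close relative, was lower, with a log2 fold change of -0.63 ± 0.20 (adjusted p = 0.0441) and is named beyond the 4 with the lowest p, chosen after its value was seen. The list's median was 0.02.

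None of the 4 other receptors that bind opioid peptides was called. The one with the lowest p was Ackr3, a scavenger of opioid peptides, which averaged 13.7 ± 5.7 TPM in knockout ganglia, against 18.9 ± 5.9 TPM in flox (-0.48 ± 0.32, adjusted p = 0.324). Of 13 tested endocannabinoid genes, 1 was called: Naaa, a lysosomal amidase of fatty acid ethanolamides, averaged 17.9 ± 3.4 TPM in knockout and 24.4 ± 6.3 TPM in flox and was lower, with a log2 fold change of -0.45 ± 0.12 (adjusted p = 0.0204). Within batches Naaa was -0.38 ± 0.17 in batch 1 (not called) and -0.55 ± 0.16 in batch 2 (called). The medians of these lists were -0.06 and -0.06.

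**Figure D4:**
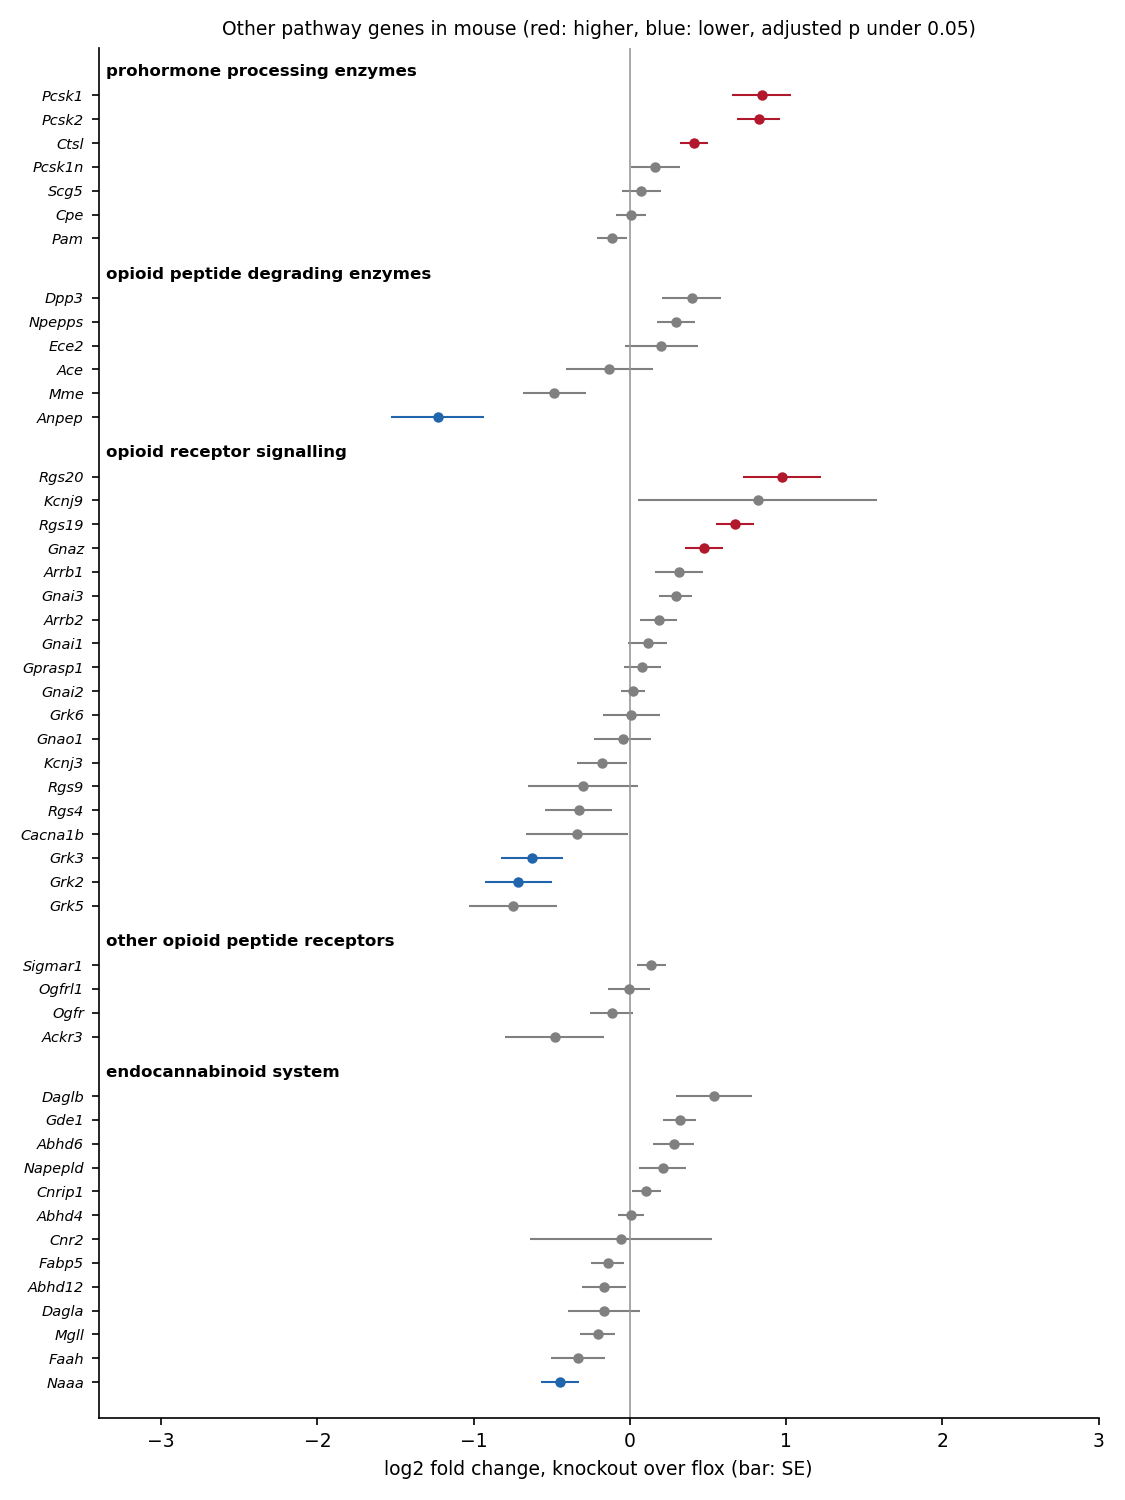
Log2 fold change of knockout over flox with its SE for the 49 tested genes of the 5 pathway lists, red where higher and blue where lower at an adjusted p under 0.05. The 2 convertases Pcsk1 and Pcsk2 and the regulators Rgs19 and Rgs20 lie between 0.67 and 0.97, and Anpep lies at -1.23.

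In the monkey ganglia none of the 9 genes was called between SADBE and vehicle by edgeR, where 0 of 17988 genes tested were called (0%) and 550 had an unadjusted p under 0.05. DESeq2 called 25 genes and limma voom none, and neither called a member. The SE of the 9 log2 fold changes ran from 0.56 to 1.42. Of the members, 1 had an unadjusted p under 0.05 in edgeR. The TPM ranges of SADBE and vehicle overlapped for 9 of 9 members, where 9.03% of all genes tested did not overlap. Vehicle library 1 stood apart, with a summed pan-neuronal level of 1220 TPM against 2570 to 4660 TPM in the other 5 libraries, and summed neutrophil and marrow markers of 3290 TPM against 37.9 to 639 TPM.

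PENK was the member with the lowest p. It measured 0, 1.18 and 0.441 TPM in SADBE libraries 1 to 3, from 0, 8 and 6 counts, against 0.890, 10.4 and 15.2 TPM in vehicle libraries 1 to 3, from 21, 169 and 152 counts. Vehicle libraries 2 and 3 were far above all SADBE libraries, while vehicle library 1 lay below SADBE library 2. The log2 fold change was -4.17 ± 1.42 (unadjusted p = 0.0171, adjusted p = 0.999, edgeR), and it ran from -5.36 to -3.22 when each library was left out in turn. Without vehicle library 1 it was -4.73 ± 1.24. Spinal cord markers summed to 15, 7.53 and 8.60 TPM in SADBE libraries 1 to 3 and to 6.49 to 11.1 TPM in vehicle libraries. Of the 11 markers, 6 to 8 were at 0 in each library, among them GAD2, SLC32A1, SLC6A5, LBX1 and PAX2 in all 6. The sums thus rest on few markers, and the part of spinal cord tissue in the PENK value was not tested.

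PNOC had the highest mean level of the 9 genes in both monkey groups. It measured 0.374, 5.21 and 71.9 TPM in SADBE libraries and 24.2, 6.64 and 13.8 TPM in vehicle libraries. It had no stable direction: the fitted log2 value was 0.72 ± 1.35, and -2.57 ± 1.19 without SADBE library 3, neither of them called (adjusted p = 0.999 and 1). With all libraries, limma voom gave -1.46 and limma on log2(TPM + 1) gave -0.73. PDYN measured 0.413, 2.74 and 0.0821 TPM in SADBE and 0.196, 0.464 and 0.0373 TPM in vehicle libraries, from 1 to 50 counts, with a log2 fold change of 2.30 ± 1.27. POMC ranged from 0.885 to 2.54 TPM in SADBE and from 0.485 to 1.48 TPM in vehicle libraries (0.63 ± 0.85). All adjusted p-values of the members were 0.999.

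Of the receptors, OPRM1 measured 1.72, 1.34 and 1.65 TPM in SADBE and 0.531, 2.18 and 3.61 TPM in vehicle libraries, so the SADBE values lay within the vehicle range (log2 fold change -0.30 ± 0.74). OPRL1 measured 3.45, 2.31 and 1.65 TPM in SADBE and 1.33, 4.38 and 2.01 TPM in vehicle libraries (-0.02 ± 0.56). OPRK1 measured 1.05, 0.717 and 0.500 TPM in SADBE and 0.507, 0.753 and 0.967 TPM in vehicle libraries (-0.06 ± 0.63), and OPRD1 0.630, 1.71 and 1.09 TPM in SADBE and 0.231, 0.601 and 1.16 TPM in vehicle libraries (0.69 ± 0.88). The groups overlapped for all 4 receptor genes.

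CNR1 measured 0.0309, 0.214 and 0.374 TPM in SADBE libraries, from 2, 7 and 25 counts, against 0.357, 0.676 and 1.27 TPM in vehicle libraries, from 43, 52 and 61 counts. SADBE library 3 lay just above vehicle library 1, and the other SADBE libraries lay below all vehicle libraries. The log2 fold change was -1.92 ± 0.99 (unadjusted p = 0.0869, adjusted p = 0.999, edgeR). Of the 47 pathway genes tested in monkeys, none was called by edgeR or DESeq2. GNAZ had the lowest p of them, 0.0333 unadjusted. It measured 1140, 598 and 513 TPM in SADBE and 55.3, 130 and 331 TPM in vehicle libraries, which did not overlap (log2 fold change 1.96 ± 0.78, adjusted p = 0.999).

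**Figure D5:**
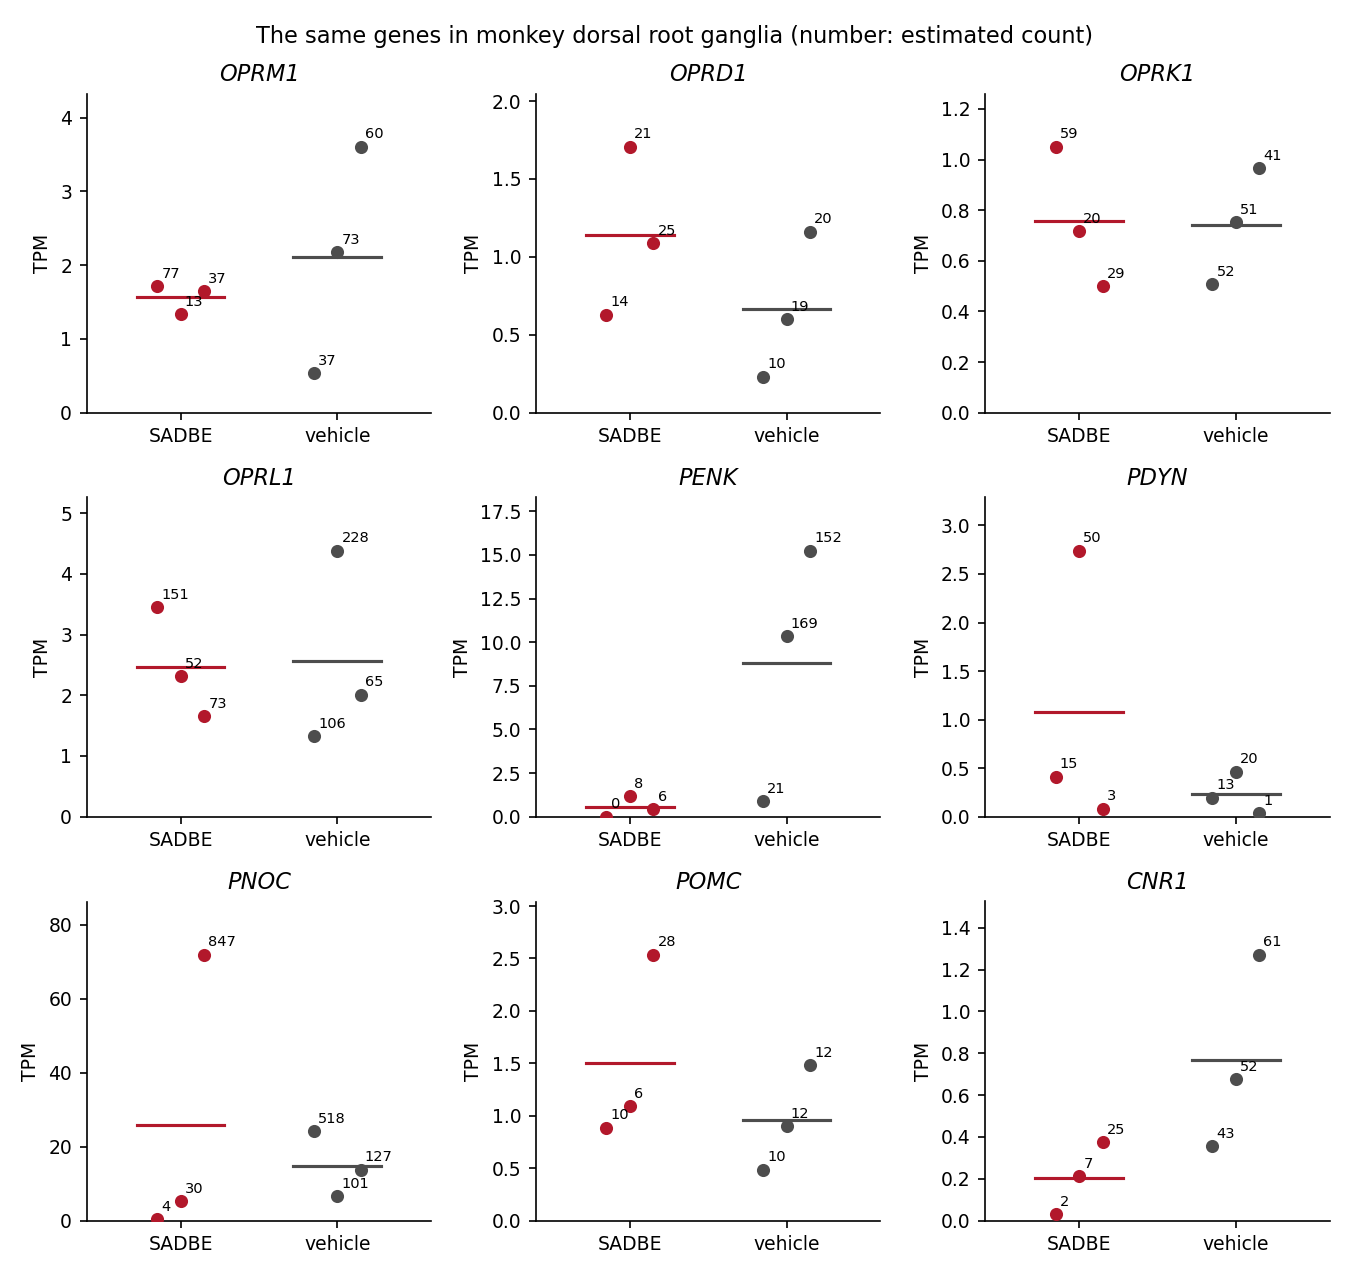
TPM of the same 9 genes in the 6 monkey libraries, SADBE in red on the left and vehicle in grey on the right, with bars for means (n = 3 each) and the estimated count beside each point. The groups overlap in every panel, PENK is at most 1.18 TPM in SADBE, and a single SADBE library carries PNOC at 71.9 TPM.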

How the data were processed

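Total RNA of fresh frozen ganglia was sequenced as bulk libraries, per the labels. The authors made estimated counts per gene with kallisto, which assigns reads to transcripts, and named the build GRCm38, per the submitters' processing notes; no version, and no monkey transcriptome, is given in the sources used here. TPM, per transcript length, was deposited beside the counts. A row that names no gene held 0.0785% to 0.186% of mouse counts and was left out. Counts were rounded and tested with the quasi-likelihood test of edgeR 4.0.16 (R 4.3.3; filterByExpr, minimum count 10 and total 15; TMM; batch as a term in mice), adjusted over all genes tested. SE was derived from the F statistic. DESeq2 1.42.0, limma 3.58.1, unfiltered counts, log2(TPM + 1 or 0.1), left-out libraries and replicate blocks were alternatives. The procedure was tested on simulated data. No libraries in a group were copies (chi-square per gene at least 22.1). P-values measure the spread between libraries, which may be technical.

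Genes were named by rule: all members, called pathway genes (at most the 4 lowest p of a list, or the 1 lowest) and the 2 genes most alike to each member by r of log2 CPM (prior count 2, genes of at least 1 TPM). Members and lists were chosen with earlier results of these data known. A gene named by this rule is not reported here. Protein sequences and promoters were not used here.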

Additional observations from a re-analysis of the deposited data

Results flagged for a closer look

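In mice, 3 of 18 sets of values, each a gene in 1 genotype over both batches, held a library that stood apart by Dixon's criterion. The gap of that library to its nearest neighbour was large for the range of the 7 libraries. By chance about 1 in 20 groups are flagged if values are normally distributed in a single population. These were TPM values without a log scale from both batches, so the count cannot be set against that rate. Penk was 75.4 TPM in knockout library 3, with a gap of 0.688 of the range, and Pnoc was 2.48 TPM in the same library, with a gap of 0.587. Oprl1 was 0.801 TPM in flox library 2, the lowest of its group, with a gap of 0.577.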

How the results depend on the processing

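The count of mouse members called was 1 (Cnr1) under DESeq2 (adjusted p = 0.0349) and limma voom (0.0259), and 0 to 1 with each library left out, in both batches together and in batch 2 alone. The shares of all genes called under these alternatives are not given here. Pathway genes called were 13 under DESeq2, 9 without the filter and 7 to 12 with a library left out. Other values turned direction as follows, none of them called; the cause was not tested. Penk was -0.39 under voom, -0.26 and -0.29 on log2(TPM + 1) and log2(TPM + 0.1), -0.39 without knockout libraries 6 and 7 and -0.30 with the spinal cord covariate, an alternative chosen after seeing the data. The interaction of Pnoc was 0.0243 without the filter, and the ratio of Oprm1 to neuronal markers 0.11 on log2(TPM + 0.1). In monkeys, voom gave OPRK1 0.0929, OPRL1 0.0913, OPRM1 0.0809 and PNOC -1.46. On log2(TPM + 1) OPRK1 was 0.0078, OPRL1 0.0179 and PNOC -0.73, and on log2(TPM + 0.1) OPRK1 was 0.0099, OPRL1 0.0517 and PNOC -1.22.

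With each library left out, values ran as follows. Both batches: Penk -0.41 to 0.26, Pdyn -0.65 to 0.0452. Batch 1: Cnr1 -0.0511 to 0.22, Oprk1 -0.35 to 0.21, Pdyn -1.53 to 0.10, Penk -1.23 to 0.25. Batch 2: Oprd1 -0.64 to 0.30, Oprm1 -0.10 to 0.60, Pdyn -0.89 to 0.38, Penk -0.17 to 0.65, Pomc -0.25 to 0.20. Interaction: Oprl1 -0.91 to 0.29, Oprm1 -0.44 to 0.25, Pdyn -0.64 to 1.43, Penk -0.10 to 1.47, Pnoc -0.32 to 0.62. Monkeys: OPRK1 -0.30 to 0.35, OPRL1 -0.32 to 0.39, OPRM1 -0.78 to 0.32, PNOC -2.57 to 1.30, POMC -0.0348 to 1.24.

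Whether library numbers pair the samples could not be settled. Same-numbered deviations correlated at -0.13 to 0.147 in mice and -0.312 to 0.233 in monkeys. Knockout libraries 3 and 5 and SADBE library 3 were closest to their own number, and the others were not. Low correlations over so few libraries cannot exclude pairs, so the replicate block was run as an alternative. With the replicate block, 1 member was called in both batches together (Cnr1, 0.66 ± 0.17, adjusted p = 0.0337). Genes called with the block were 2103 against 2423 in both batches and 0 in monkeys. Within a batch the block kept only numbers found in both genotypes. It thus left out knockout library 4 in batch 1 and flox library 4 in batch 2. On those fewer libraries it called 646 genes in batch 1 and 2018 in batch 2. All libraries of the batch without the block gave 273 and 2085. These counts therefore differ in samples as well as in the block. With the block Penk was -0.44, Pomc in batch 2 0.26 (without flox library 4), OPRL1 0.0459 and PNOC -0.74. Low counts limit Oprd1, Pdyn, Pnoc and Pomc in mice and OPRD1, PENK, PDYN, PNOC, POMC and CNR1 in monkeys, each with a library at 10 or fewer counts.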
